A study of Mus musculus with 12 samples.

Results

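Tssk1, Tssk2 and Tssk3 encode testis-specific serine kinases, and their signals were followed across 4 isolated mouse germ cell types. The probe sets were those that the platform annotation assigns to these symbols. There were 4 of them among 36701 probe sets with controls left out: 1 for Tssk1 and 1 for Tssk2 on the U74Av2 design and 2 for Tssk3 on U74Cv2. The genes are 3 of the 15964 named genes on the arrays.

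The cell types, in the order of spermatogenesis, were spermatogonia of type A and of type B, then pachytene spermatocytes, then round spermatids. Total RNA of each was hybridised to 3 Affymetrix designs after one-cycle labelling, 12 arrays in all. Each design had 1 array for a cell type, so differences carry no replicate error and no test was possible. The sources used here state no strain, genotype or age of the mice, nor how the cells were isolated.

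The kinases of this family are serine/threonine kinases related to AMP-activated kinase. They are known almost only from the testis, where they act in haploid germ cells while the spermatid reshapes its nucleus, acrosome and tail. In mice, loss of Tssk1 together with Tssk2 makes males infertile, and so does loss of Tssk6. The Tssk1 and Tssk2 proteins bind and phosphorylate the substrate protein Tsks, and Tssk6 is matured by the chaperone HSP90 with the small co-chaperone Tsacc.

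Tssk1 and Tssk2 lie next to each other on chromosome 16 and Tssk3 lies on chromosome 4. Because the 3 genes share a pattern across the cell types, the sequence around the start of each is shown, from 250 bases before to 50 bases after the annotated start. The sequences are from RefSeq (GRCm38.p6), and capitals mark matches to TGACNTCA on either strand, a looser form of the cAMP response element TGACGTCA. The windows are chr16:17893953-17894252 (plus strand) for Tssk1, chr16:17898387-17898686 (plus strand) for Tssk2 and chr4:129490721-129491020 (minus strand) for Tssk3.
Tssk1: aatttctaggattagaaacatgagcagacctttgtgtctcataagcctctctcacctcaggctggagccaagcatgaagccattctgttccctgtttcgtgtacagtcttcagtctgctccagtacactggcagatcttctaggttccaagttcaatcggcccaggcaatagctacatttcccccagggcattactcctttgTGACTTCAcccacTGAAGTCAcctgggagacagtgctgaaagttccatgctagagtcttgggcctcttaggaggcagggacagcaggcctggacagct
Tssk2: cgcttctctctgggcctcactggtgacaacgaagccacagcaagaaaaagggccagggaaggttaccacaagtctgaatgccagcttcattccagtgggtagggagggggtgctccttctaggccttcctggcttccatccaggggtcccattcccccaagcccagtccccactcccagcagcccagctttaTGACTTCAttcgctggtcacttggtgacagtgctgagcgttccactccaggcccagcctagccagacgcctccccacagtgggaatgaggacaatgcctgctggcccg
Tssk3: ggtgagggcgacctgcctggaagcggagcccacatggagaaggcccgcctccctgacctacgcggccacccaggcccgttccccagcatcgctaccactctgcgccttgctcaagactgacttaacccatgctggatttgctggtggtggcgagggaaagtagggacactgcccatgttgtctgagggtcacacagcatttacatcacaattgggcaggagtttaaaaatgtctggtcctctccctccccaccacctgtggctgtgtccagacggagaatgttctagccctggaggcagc

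Motifs were searched on both strands: the element TGACGTCA, its core written as TGACG, the GC box with GGGCGG, the TATA box with TATAAA and the CCAAT box. In all, 1 match was found in the 3 windows. It was a CCAAT match on the opposite strand of the Tssk3 window that begins 41 bases before the start. Over all 32851 promoter windows of the same length, 1.79% hold TGACGTCA, 20.8% its core, 35.7% the GC box, 13.6% the TATA box and 37.4% the CCAAT box. Every TGACGTCA also counts as a core match.

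The looser TGACNTCA was added after the sequences had been seen, and it includes every TGACGTCA. It has 2 matches in the Tssk1 window, beginning 48 and 35 bases before the start, and 1 in the Tssk2 window, beginning 58 bases before the start. The Tssk3 window holds none, and 8.83% of all windows hold at least 1. The longest run of bases shared by the Tssk1 and Tssk2 windows is 11 bases long, gacagtgctga, and lies just after these matches. On the same strand, 4 of the 32851 windows hold it, and the Tssk1 and Tssk2 windows that gave the run are among them. The windows are 50.7% G and C for Tssk1, 59.7% for Tssk2 and 59.3% for Tssk3, and the median of all windows is 52.7%. A match describes letters in a window and is not evidence of binding.

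Signals are in the arbitrary units of the authors' processing, and arrays of a design were brought to a common mean. The floor used here is 0.4 of this mean, 50.01 to 50.03 units. Signals below it are not told from background, have no order among themselves and enter ratios at the floor, so that a ratio against such a signal is a lower bound, written "at least". The highest of 19 negative control probe sets read between 12.9 and 104 units on the 12 arrays. On the U74Cv2 arrays, the design of Tssk3, 3 to 7 of the 19 were over the floor. On U74Bv2, 1 was in type A and 4 in type B spermatogonia, and on U74Av2 none. On arrays with such controls, a signal just over the floor is thus not told from background either. Of the genes chosen to mark round spermatids, 4 of 6 read at least 4-fold higher in round spermatids than in pachytene spermatocytes; Prm2 read 67.3 in round spermatids and 46.9 in pachytene spermatocytes, and Spaca1 was below the floor in both.

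Markers of other cells were also read. Pachytene spermatocyte markers were over the floor for 5 of 6 genes in round spermatids, with a summed signal of 24967, and for 6 in pachytene spermatocytes, with 25752. Most of each sum came from Hspa2, at 11485 in round spermatids and 12268 in pachytene spermatocytes, and Ldhc, at 10651 and 8691. In the same order, Sycp1 read 454 and 220, Ccna1 806 and 405, and Spo11 1559 and 4109. Sycp3 was below the floor in round spermatids and read 60.4 in pachytene spermatocytes. That reading was below the highest negative control of its array, at 61.2 units, and so is not told from background. Markers of somatic testis cells had sums in round spermatids and pachytene spermatocytes of 894 and 2633 for Sertoli cells (3 and 6 of 8 genes over the floor) and 182 and 663 for Leydig cells (1 and 3 of 5). For myoid cells and fibroblasts they were 613 and 484 (3 and 4 of 7), and for leukocytes 177 and 107 (2 and 1 of 5). Summed signals of spermatogonia markers were higher in round spermatids than in pachytene spermatocytes. Type A markers summed to 726 in round spermatids and 260.1 in pachytene spermatocytes (2 and 3 of 5 genes over the floor). Most of the 726 came from Sall4, at 588 in round spermatids and 96.8 in pachytene spermatocytes. In the same order, Gfra1 read 66.9 and 50.6, both close to background. Etv5 was below the floor in round spermatids and read 60.7 in pachytene spermatocytes. Zbtb16 and Lin28a were below the floor in both. For differentiating spermatogonia the sums were 1037 and 398 (4 and 2 of 4), and each gene read higher in round spermatids.

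In the spermatogonia themselves, type A markers summed to 1371 in type A and 1174 in type B cells (5 of 5 in each). Markers of differentiating spermatogonia summed to 4269 in type A and 4661 in type B cells (4 of 4 in each). Neither list moved together. Sall4 read 248 in type A and 647 in type B cells, while the other type A markers read lower in type B cells. Their list had a median log2 ratio of -0.83. Rhox13 read 2208 in type A and 3308 in type B cells, and Stra8 482 and 493. Kit (385 and 202) and Dmrt1 (1195 and 659) read lower in type B cells. The Sertoli sum was 5251 in type A and 3823 in type B cells (7 of 8 in each), and the myoid and fibroblast sum 5613 in type A and 10821 in type B cells (7 of 7 in each). The Leydig sum was 393 in type A and 681 in type B cells (4 and 5 of 5), and the leukocyte sum 255 in type A and 477 in type B cells (2 and 4 of 5). The part of these other cells in the kinase signals was not tested.

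Tssk1 read 31.8 in type A and 17.5 in type B spermatogonia, then 123 in pachytene spermatocytes and 1954 in round spermatids. It was thus below the floor in both spermatogonial types, low in pachytene spermatocytes and high in round spermatids. The round spermatid signal was 15.9-fold that of pachytene spermatocytes, the next highest cell type. The pachytene signal was at least 2.45-fold that of type B spermatogonia.

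Tssk2, the neighbour of Tssk1, read 17.3 in type A and 27.8 in type B spermatogonia, then 112 in pachytene spermatocytes and 2652 in round spermatids. The order of the cell types was that of Tssk1, again with both spermatogonial types below the floor. The ratio of round spermatids over pachytene spermatocytes was 23.7-fold, and that of pachytene spermatocytes over type B spermatogonia at least 2.23-fold. The pachytene signals of Tssk1 and Tssk2 were 9.51 and 8.67 times the highest negative control of their array, which read 12.9 units.

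Tssk3 was read by a pair of probe sets. On 167210_at it read 20.8 in type A and 18.5 in type B spermatogonia, then 35.2 in pachytene spermatocytes and 3439 in round spermatids. On this probe set only round spermatids exceeded the floor, at least 68.7-fold above any of the other 3. On 166292_f_at, whose ending marks probes that may be shared among similar sequences, it read 4.70 in type A and 12.8 in type B spermatogonia, then 81.2 in pachytene spermatocytes and 2405 in round spermatids. There the ratio of round spermatids over pachytene spermatocytes was 29.6-fold.

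The probe sets of Tssk3 thus had the same high cell type and differed over pachytene spermatocytes, where 1 of 2 was over the floor. The pachytene reading of 81.2 on 166292_f_at was 1.33 times the highest negative control of that array, at 61.2 units, and so is close to background. The probe set 167210_at, with the higher mean signal, represents Tssk3 in what follows. Among 1899 genes with 2 probe sets measured on both sides, 27.1% had ratios of round spermatids over pachytene spermatocytes that differed by more than 2-fold. The letters of the probes were not used here, so whether Tssk1 and Tssk2, or other related kinases, share signal was not tested.

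**Figure D1:**
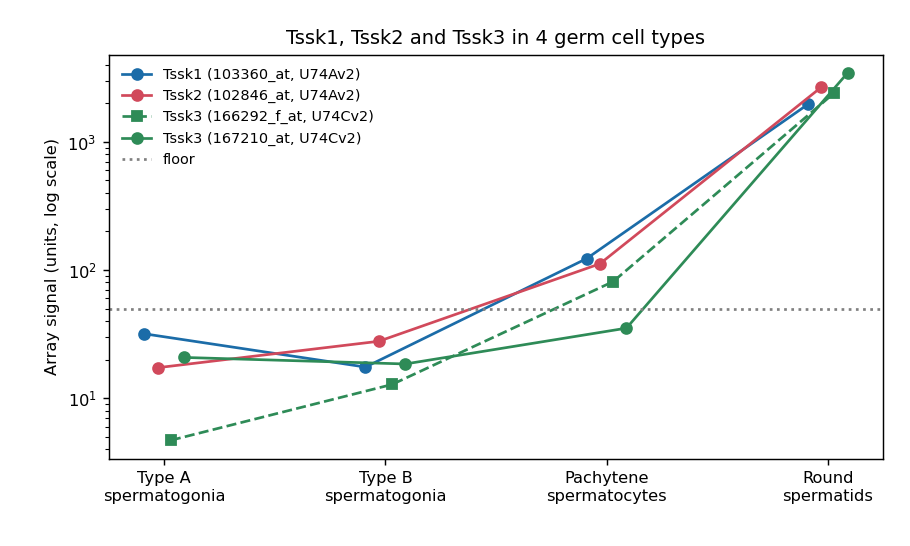
Signal of each probe set of Tssk1, Tssk2 and Tssk3 (y axis, arbitrary units, log scale) in the 4 cell types (x axis, in the order of spermatogenesis), 1 array per point, with the floor dotted. All 4 probe sets are highest in round spermatids, between 1954 and 3439 units, and below the floor in both spermatogonial types; levels of different probe sets are not comparable.

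Between type B and type A spermatogonia no ratio can be given for any of the 4 probe sets, since both cell types were below the floor. Over all genes, 0.167% of 11951 reached 4-fold higher in type B spermatogonia and 0.176% reached 4-fold lower.

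Between pachytene spermatocytes and type B spermatogonia none of the 3 genes reached 4-fold, against 7.9% of 12281 genes at least 4-fold higher and 5.44% lower. This count is limited by the floor. The values for Tssk1 and Tssk2 are lower bounds from a signal below the floor in type B spermatogonia, and Tssk3 was below it in both. With the floor at 0.2 of the mean, Tssk1 was 4.91-fold and Tssk2 4.02-fold higher in pachytene spermatocytes, with the value for Tssk1 still a bound. The type B signal of Tssk2, 27.8, was below the highest negative control of that array, at 32.7 units, and so is not told from background. With the floor at 0.8, Tssk1 was at least 1.23-fold and Tssk2 at least 1.12-fold higher.

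Between round spermatids and pachytene spermatocytes all 3 genes were at least 4-fold higher in round spermatids, against 4.45% of 11203 genes at least 4-fold higher and 2.28% lower. The median log2 ratio over all genes was -0.06. The smallest of the 4 probe set ratios was a log2 of 3.99, for Tssk1. The technical spread, the SD over the 3 designs of the log2 ratio that a shared control probe set gave, was 0.44 for this step (29 control probe sets). That spread includes no difference between cell preparations.

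Among the 8947 genes measured on both sides, 96 others (1.07%) had a ratio at least as high as that of Tssk1. For Tssk2 the number was 40 (0.447%). Tssk3 is given no place in this order. Its value on 167210_at is a bound that moves with the floor, its other probe set gave 29.6-fold, and quantile normalization gave at least 48.9-fold.

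The 3 genes were also at least 4-fold over the highest of the other 3 cell types, as were 383 of 13003 genes (2.95%). Of these 383 genes, 112 had the profile of Tssk1 and Tssk2, with both spermatogonial types at the floor and pachytene spermatocytes over it. Another 90 had the profile of Tssk3 on 167210_at, at the floor in all of the other 3 cell types.

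**Figure D2:**
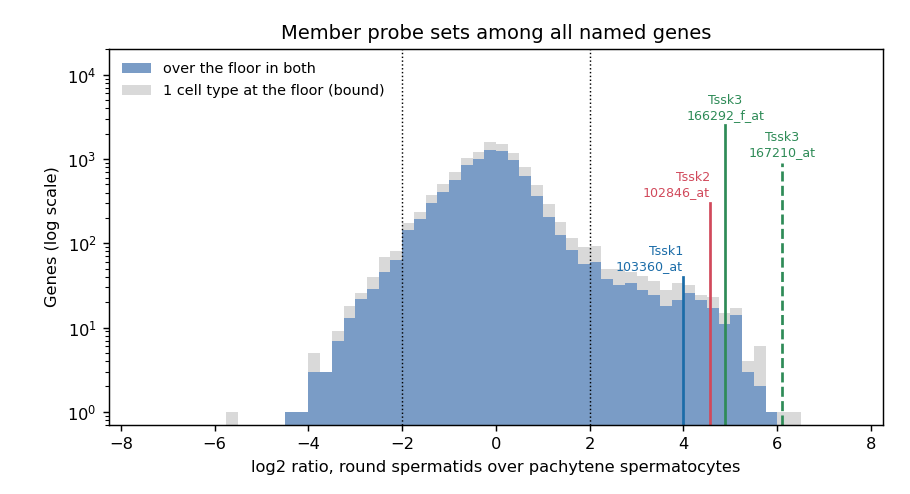
Number of genes (y axis, log scale) by log2 ratio of round spermatids over pachytene spermatocytes (x axis), blue for genes measured on both sides and grey for bounds, with 4-fold marked by dotted lines. Vertical lines mark the member probe sets, between log2 3.99 for Tssk1 and a lower bound of 6.10 (dashed) for Tssk3 on 167210_at, all in the right tail.

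The pachytene signals can be stated as a share of the round spermatid signals of the same probe set. The share was 6.28% for Tssk1 and 4.21% for Tssk2. For Tssk3 it was at most 1.45% on 167210_at and 3.38% on 166292_f_at. For other genes known from round spermatids the share was 4.71% for the transition protein gene Tnp2, 9.23% for the protamine gene Prm1 and 13.5% for Tnp1, and at most 4.28% for the acrosomal gene Acrv1. Whether round spermatid RNA entered the pachytene preparation was not tested, so the low pachytene signals of Tssk1 and Tssk2 are not assigned to spermatocytes here. In preparations of many cells, more RNA per cell and more cells that express a gene cannot be told apart either.

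RNA integrity was read from the 3' over 5' signal ratio of actin control probe sets, where a higher ratio means less intact RNA. The actin ratio was 1.53 to 1.75 on the round spermatid arrays and 1.48 to 1.77 on the pachytene arrays. It was higher on the spermatogonial arrays, 2.41 to 2.49 for type B and 2.10 to 2.23 for type A, and so moved with the step between pachytene spermatocytes and type B spermatogonia. For Gapdh the ratio was 1.06 to 1.14 on the round spermatid arrays and 0.69 to 0.80 on the pachytene arrays, and 0.97 to 1.11 for type B and 0.93 to 1.03 for type A spermatogonia. The part of these values in the member ratios was not tested.

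Of the 6 kinases of the family, 5 had probe sets. Of the 5, 4 were at least 4-fold higher in round spermatids than in pachytene spermatocytes, against 4.45% of 11203 genes. The 3 members chosen for this account are among the 4. Tssk6, a kinase needed for the exchange of histones for protamines, read 45.6 in type A and 39.0 in type B spermatogonia, then 340 in pachytene spermatocytes and 6032 in round spermatids. It was 17.7-fold higher in round spermatids than in pachytene spermatocytes and at least 6.80-fold higher in pachytene spermatocytes than in type B cells. Its only probe set, 166167_f_at, also has an ending for shared probes.

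Tssk4, another family member, read 5.50 in type A and 17.3 in type B spermatogonia, then 4.90 in pachytene spermatocytes and 108 in round spermatids. It too was over the floor in round spermatids alone, at least 2.16-fold over pachytene spermatocytes. Tssk5 is not analysed here. The family's median log2 ratio at this step was 4.15 over 5 genes, of which 3 are the members chosen for this account.

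Partners of the kinases did not share one pattern, and 5 of 7 were measured. Tsks, the substrate of Tssk1 and Tssk2, read 4.70 in type A and 5.90 in type B spermatogonia, then 9.70 in pachytene spermatocytes and 432 in round spermatids. It was at least 8.64-fold higher in round spermatids than in each of the other cell types, and so had the cell type order of Tssk3. Tsks was the 1 partner of 5 that was at least 4-fold higher in round spermatids than in pachytene spermatocytes. The share over all genes was 4.45%, and the partners' median log2 ratio was -0.25.

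Spag16, an axonemal protein gene whose product is a substrate of Tssk2 in the mouse, was already high in pachytene spermatocytes. It read 1861 in round spermatids and 2767 in pachytene spermatocytes, a ratio of 0.673, while pachytene spermatocytes were 34.6-fold over type B spermatogonia. Its type B signal of 79.9 was below the highest negative control of that array, at 104 units, and so is not told from background. Of the other Spag16 probe sets, the 2 measured in both round spermatids and pachytene spermatocytes gave ratios of 1.21 and 0.471. For pachytene spermatocytes over type B spermatogonia they gave at least 11.9-fold and at least 2.61-fold. Hsp90aa1, an HSP90 gene, read 6278 in round spermatids and 7471 in pachytene spermatocytes, and it was 2.15-fold higher in pachytene spermatocytes than in type B cells.

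Pdpk1, a kinase that phosphorylates human TSSK3 in vitro, had probe sets that disagreed. On the probe set with the higher mean it read 162 in round spermatids and 219 in pachytene spermatocytes, and on 102063_at it read 465 in round spermatids and 59.5 in pachytene spermatocytes, 7.81-fold higher. Ppp1cc, a phosphatase catalytic subunit gene with a testis isoform, read 150 in round spermatids and 139 in pachytene spermatocytes, against 571 in type B spermatogonia. Its other probe set, 168516_r_at, read 119 in round spermatids and 167 in pachytene spermatocytes, against 51.5 in type B spermatogonia. The pair disagreed over the earlier step, with pachytene spermatocytes 4.10-fold lower than type B spermatogonia on the first and 3.24-fold higher on 168516_r_at. The type B signal of 51.5 on 168516_r_at was below the highest negative control of that array, at 104 units, and so is not told from background. Tsacc and Hsp90ab1 are not analysed here.

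The kinases of the AMP-activated branch outside the Tssk family did not have the members' profile. Of 16 measured genes, 13 had a ratio of round spermatids over pachytene spermatocytes. None of the 13 was at least 4-fold higher, where 4.45% of all genes were. Mark2 was 7.51-fold lower, with 351 in round spermatids and 2640 in pachytene spermatocytes. The median log2 ratio was -0.05, near the -0.06 of all genes. Sik1 read 194 in round spermatids and 556 in pachytene spermatocytes, 2.87-fold lower. Hunk was at least 13.3-fold higher in pachytene spermatocytes than in type B cells, and it read 445 in round spermatids and 664 in pachytene spermatocytes. Stk11, the upstream kinase of this branch, read 179 in round spermatids and 243 in pachytene spermatocytes.

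Of 8 other kinases known from male germ cells, 4 had probe sets. None of the 3 with a ratio was at least 4-fold higher in round spermatids than in pachytene spermatocytes, where 4.45% of all genes were. Mak, a kinase of cilia and male germ cells, read 623 in round spermatids and 965 in pachytene spermatocytes. Stk33 read 766 in round spermatids and 1311 in pachytene spermatocytes. Both were over 4-fold higher in pachytene spermatocytes than in type B cells, Mak 11.2-fold and Stk33 at least 26.2-fold. At this step none of the 3 Tssk genes reached 4-fold at this floor. The type B signal of Mak, 85.8, was below the highest negative control of that array, at 104 units, and so is not told from background.

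Genes of spermatid structures differed in how close they came to the members' profile. Over all genes, 4.45% of 11203 were at least 4-fold higher in round spermatids than in pachytene spermatocytes. In the sperm chromatin list 7 of 9 genes were, with a median log2 ratio of 4.06. Among them H2al2a, a histone variant gene, was 33.5-fold, the linker histone gene H1f7 at least 31.8-fold, Prm3 24.2-fold and Tnp2 21.2-fold higher. In the cytoskeleton and tail list 8 of 11 were at least 4-fold higher, with a median of 3.46; the actin capping gene Capza3 was at least 30.1-fold, the sheath protein gene Akap4 28.9-fold, the actin-like gene Actl7a 26.1-fold and Odf1, of the outer dense fibres, 16.9-fold higher. Both medians rest on the choice of probe set: with each gene's other probe set, where it has one, the chromatin median was 0.52 over 4 genes (1 at least 4-fold higher) and the cytoskeleton and tail median 1.16 over 5 genes (2 at least 4-fold higher).

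Acrosome genes were at least 4-fold higher at this step in 2 of 6, with a median of 0.86, where 4.45% of all genes were. Spermatid transcription regulators were so in 1 of 6, with a median of 0.03, and genes of messenger RNA storage and translation control in 0 of 8, with a median of 0.29. Creb3l4, a membrane-bound relative of the CREB transcription factors, was the 1 regulator, 17.8-fold higher. On the other probe sets, 3 genes of each list had a ratio at this step, and 0 of 3 were at least 4-fold higher. The medians there were 0.01 for acrosome genes, -1.40 for regulators and -0.52 for storage genes. For pachytene spermatocytes over type B spermatogonia the counts at least 4-fold higher were 4 of 6 acrosome genes, 4 of 6 regulators and 7 of 8 storage genes, where 7.9% of all genes were. With the other probe sets, these were 2 of 3 acrosome genes, 1 of 3 regulators and 1 of 3 storage genes.

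**Figure D3:**
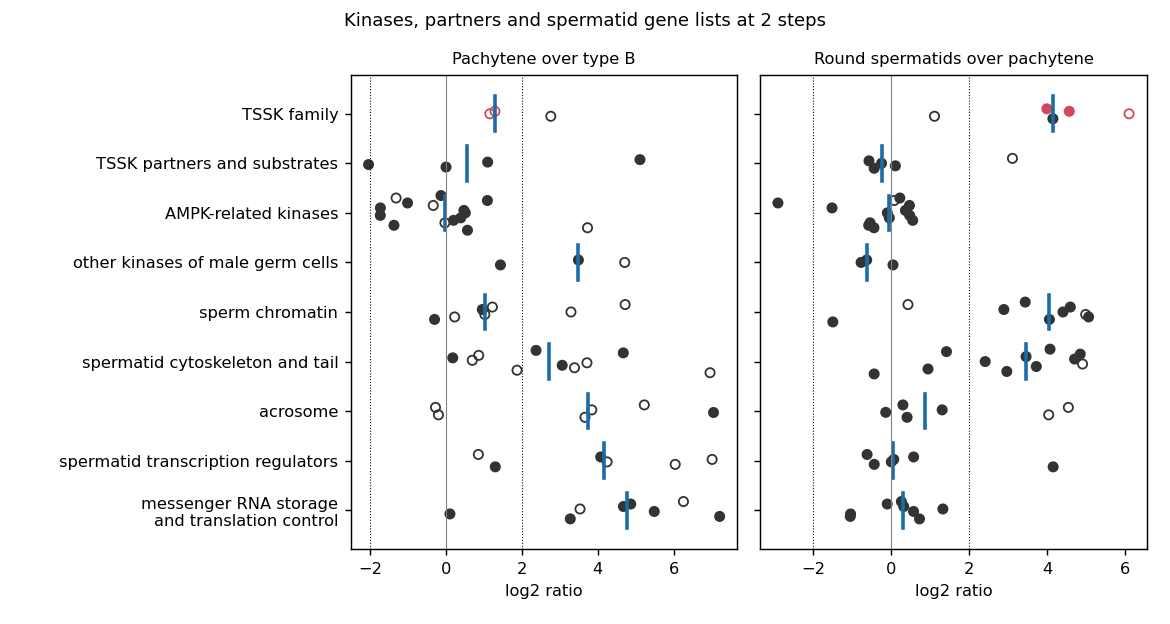
Log2 ratio of each gene (x axis) in 9 gene lists (y axis) for pachytene spermatocytes over type B spermatogonia (left) and round spermatids over pachytene spermatocytes (right). Filled points were measured on both sides, open points are bounds, red marks Tssk1, Tssk2 and Tssk3, blue bars are list medians and dotted lines mark 4-fold; on the right, the TSSK family has a median of 4.15 and the AMPK-related kinases -0.05.

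The genes with the most similar profile to each kinase were those with the smallest root mean square difference of the floored log2 signals over the 4 cell types, after each gene's mean was subtracted. With 4 values per gene, several of them at the floor, likeness says little beyond which cell types are high, and it says nothing of shared function. The closest to Tssk1 was Spata9, with a difference of 0.04. It read 21.2 in type A and 28.6 in type B spermatogonia, then 116 in pachytene spermatocytes and 1844 in round spermatids.

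Next to Tssk1 came Ftmt, for mitochondrial ferritin, and Catsper1, for a pore subunit of the sperm calcium channel, both with a difference of 0.07. Then came Cep295nl, 4930584F24Rik, Tmco5, Creb3l4 and Smkr-ps, with differences up to 0.17. Tssk2 itself was at rank 12 of 15963 genes for Tssk1, with a difference of 0.22. Tssk3 was at rank 203, with a difference of 0.76.

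The closest to Tssk2 was Prm3, with a difference of 0.04. Prm3 read 9.30 in type A and 15.0 in type B spermatogonia, then 117 in pachytene spermatocytes and 2831 in round spermatids. It was followed by Scp2d1, Lelp1, 1700013F07Rik, the ubiquitin ligase gene Rnf133, Plcz1, for the sperm phospholipase that activates the egg, Mroh9 and 1700015G11Rik, with differences up to 0.12. Tssk1 was at rank 19 and Tssk3 at rank 114 for Tssk2.

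The closest to Tssk3 were Nkx2-6, with a difference of 0.09, and Dusp13, with 0.12. Nkx2-6 read 3.10 in type A and 5.30 in type B spermatogonia, then 56.0 in pachytene spermatocytes and 3231 in round spermatids. Its pachytene signal was below the highest negative control of that array, at 61.2 units, and so is not told from background. Fam183b, the deubiquitinase gene Otub2, 1700034E13Rik, Ccdc183, Trim36 and Sun5, for a protein that joins sperm head and tail, followed with differences between 0.22 and 0.31. Tssk2 was at rank 40 and Tssk1 at rank 82 for Tssk3.

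**Figure D4:**
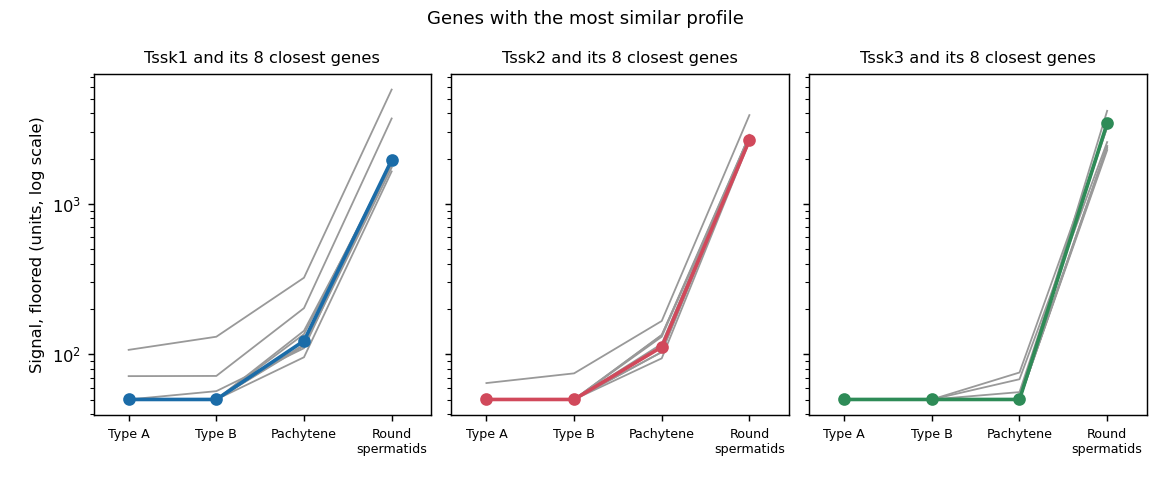
Floored signals (y axis, units, log scale) over the 4 cell types (x axis) for Tssk1, Tssk2 and Tssk3 (coloured) and the 8 genes closest to each (grey), 1 array per point. The grey lines follow the coloured ones by construction; for Tssk1, Creb3l4 is the highest, at 5746 units in round spermatids.

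The genes beside the kinases on the chromosomes, 2 on each side, differed in whether they were high in round spermatids. Beyond Tssk1 lie Dgcr2 and Car15. Dgcr2 read 1555 in round spermatids and 276 in pachytene spermatocytes, 5.64-fold higher, and Car15, a carbonic anhydrase gene, read 259 in round spermatids and 55.0 in pachytene spermatocytes, 4.71-fold higher. Unlike the kinases, both were over the floor in type A spermatogonia, Dgcr2 at 488 and Car15 at 180 units. Beyond Tssk2 lies Ess2, which read 63.9 in round spermatids, 24.2 in pachytene spermatocytes and 286 in type A spermatogonia; the next gene, Gsc2, is not analysed here.

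On chromosome 4 the neighbour of Tssk3 on one side, Fam229a, had the same cell type order as Tssk1 and Tssk2. It read 15.5 in type A and 6.60 in type B spermatogonia, then 571 in pachytene spermatocytes and 19222 in round spermatids, 33.7-fold higher in round spermatids than in pachytene spermatocytes. Marcksl1, beyond it, read 250.2 in round spermatids and 351 in pachytene spermatocytes. On the other side Bsdc1 read 95.8 in round spermatids and 151 in pachytene spermatocytes, and the pseudogene Gm24621 is not analysed here.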

How the data were processed

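Total RNA of 4 germ cell types was measured on 3 array designs. Each probe set has a linear intensity, deposited by the authors; the submitters' processing notes name MAS5. Its version and settings are not given in the sources used here, and detection calls were not used. The deposited arrays had 2% trimmed means between 125.0 and 125.1.

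Arrays of a design were brought to the geometric mean of their 4 trimmed means, and log2 was taken after a floor at 0.4 of it. Symbols from the platform annotation were updated through Entrez identifiers to a RefSeq table (GRCm38.p6), which held 29044 of 29131 probe sets with 1 symbol; 724 had several and 6846 none. A gene was represented by its probe set of highest mean signal, and ratios are within a design. A 4-fold difference was counted, and genes were compared where at least 1 cell type exceeded the floor. Python 3.11.15, numpy 2.4.6, pandas 2.3.3 and scipy 1.17.1 were used, and the counting was tested on simulated data.

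The members and lists were chosen with earlier results of these data known. The text names all probe sets of the members, all measured family members and partners, up to 4 genes of other lists by the size of their ratio of round spermatids over pachytene spermatocytes, the 8 closest genes, and 2 neighbours on each side; Tnp1, Prm1 and Acrv1 for their pachytene shares, Stk11, and the genes tied to counts of 1 were chosen after their values were seen. Alternatives were 3 other floors, 4 other scalings, 3 other choices of probe set and a 2-fold threshold. Protein identity between the kinases was planned and is not analysed here.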

Additional observations from a re-analysis of the deposited data

How the results depend on the processing

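No paired analysis was possible because there is 1 array per cell type and design. In round spermatids over pachytene spermatocytes, Tssk1 (log2 3.54 to 4.005) and Tssk2 (4.16 to 4.58) in 9 alternatives and Tssk3 (4.89 to 6.63) in 10 stayed at least 4-fold higher. Tssk1 came to 3.54 under quantile normalization. Tssk3 came to 6.61 with no floor and with the floor at 0.2, 5.10 with the floor at 0.8, 6.63 under spike-in scaling, 5.61 under quantile normalization, 5.50 with the mean over probe sets and 4.89 with its other probe set, and to the same values over the highest of the other 3 cell types. In pachytene spermatocytes over type B spermatogonia, Tssk1 was 2.81 with no floor, 2.29 with the floor at 0.2, 0.29 with the floor at 0.8 and 1.54 under spike-in scaling, and Tssk2 was 2.01, 2.01, 0.16 and 1.41 in the same order; the size of this step depends on the floor. Spike-in scaling moved the median log2 ratio of all genes to -0.76 for type B over type A spermatogonia and 0.35 for pachytene spermatocytes over type B spermatogonia. Of 180 alternative values of 18 list medians, 119 stayed within the technical spread. Of the 8 medians of at least 4-fold, 6 came below 4-fold with the other probe set and none under the other alternatives. With the other probe set, these 6 medians rest on 2 to 5 genes with a ratio. For round spermatids over pachytene spermatocytes these were sperm chromatin at 0.52 and cytoskeleton and tail at 1.16. For pachytene spermatocytes over type B spermatogonia they were cytoskeleton and tail at 1.06, other germ cell kinases at 0.79, transcription regulators at 1.92 and storage genes at 1.62. Medians below 4-fold changed sign in 17 of the 180 values, 7 of them by more than the technical spread, among them sperm chromatin in pachytene spermatocytes over type B spermatogonia, at -0.54 with the other probe set. Counts of genes at least 4-fold different moved as follows. For type B over type A spermatogonia the higher and lower counts were 420 and 281 with no floor, 65 and 62 with the floor at 0.2, 6 and 7 with it at 0.8, 1 and 172 under spike-in scaling, 11 and 12 without special endings, and 468 and 471 at 2-fold; 9 were higher under a common median and 32 lower under quantile normalization. For pachytene spermatocytes over type B spermatogonia the lower count was 1796 with no floor, 1056 with the floor at 0.2, 327 with it at 0.8 and 339 under a common median; under spike-in scaling 1543 were higher and 242 lower, and at 2-fold 2105 and 2854. For round spermatids over pachytene spermatocytes 1034 were higher and 756 lower with no floor, 1180 and 1537 at 2-fold, and 383 lower with the floor at 0.2 and 149 at 0.8. At 2-fold 756 genes were higher over the highest of the other 3 cell types. With the floor at 0.2, an alternative chosen after seeing the data, 4 of 8 closest genes of Tssk1 and 6 of 8 of both Tssk2 and Tssk3 remained. Apart from the floor and the choice of probe set, whose construction sets the bounds, the cause of these moves was not tested.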
